A study of Mus musculus with 2 samples.

Results

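The genes described here are 9 transcriptional regulators that act in turn as olfactory neurons form: the basic helix-loop-helix (bHLH) genes Neurog1, Neurod1, Nhlh1 and Nhlh2, the zinc finger gene Insm1, the Hes genes Hes1, Hes5 and Hes6, and Id2. They were chosen by name, and all 9 were found among the 21728 protein-coding genes that GENCODE M21 places on the autosomes and X (GRCm38). The map comes from in situ Hi-C, which joins pieces of DNA that were neighbours in the nucleus, after crosslinking with 1% formaldehyde and cutting with DpnII. The cells were olfactory sensory neurons sorted for the receptor gene Olfr17 (P2) from the olfactory epithelium of adult P2-GFP mice of the strain 129P2/OlaHsd, of both sexes and without treatment. The labels list no genetic modification in the field meant for it, although the sorting protocol names the P2-GFP mice, and they do not say how many animals were used. The 2 biological replicates, of 23000 and 20000 cells, form 1 group without a control.

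The deposited file is 1 list of 7576 domain boundaries, positions across which contacts are depleted, called on the contacts of both replicates together. It therefore holds no spread between replicates and allows no test, and the values below describe 1 map. Each boundary is a bin of 5 kb with a class and a score. The score has no stated unit, runs from 0.2 to 4.38 with a median of 0.545, and divides the classes Weak and Strong at 0.5. Strong boundaries make up 53.4% of the list. The depth is unknown, since the sources used here do not give the number of contacts. A boundary list carries no expression, so the identity of the sorted cells and the activity of the genes could not be read from it.

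In the olfactory epithelium, stem and progenitor cells pass through a short series of bHLH activators before they become receptor neurons. Proneural factors such as Neurog1 commit a cell to the neuronal fate, and Neurod1, Nhlh1 and Nhlh2 act in late progenitors and newborn neurons. Notch signalling opposes this series through the repressors Hes1 and Hes5, and Id proteins oppose it by binding the E protein partners of the activators. The labels call the sorted cells mature, a stage past these steps.

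A domain is the interval between neighbouring boundaries. For each gene, the interval ran from the nearest boundary midpoint on one side of the transcription start site (TSS) to the nearest on the other. The 9 genes lay in 9 different intervals with 18 different flanking boundaries. The number of genes in an interval ranged widely. Hes6 and Hes5 shared their intervals with 11 and 7 other protein-coding genes, while Hes1, Insm1 and Id2 shared theirs with none. Genes were placed by the TSS, and for Hes1 a boundary bin lay over the gene itself. Having no other protein-coding TSS in the interval was the case for 8.74% of all protein-coding genes with a boundary on both sides. The same 3 genes were the only ones of the 9 with a boundary within 50 kb of the TSS, at 3.12 kb for Hes1, 9.64 kb for Id2 and 14.4 kb for Insm1. Over all protein-coding genes, 43.2% had a boundary within 50 kb, 23.9% within 25 kb and 11.5% within 10 kb, against 3, 3 and 2 of the 9. A limit of 100 kb took in 7 of the 9 and 72.4% of all.

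**Figure D1:**
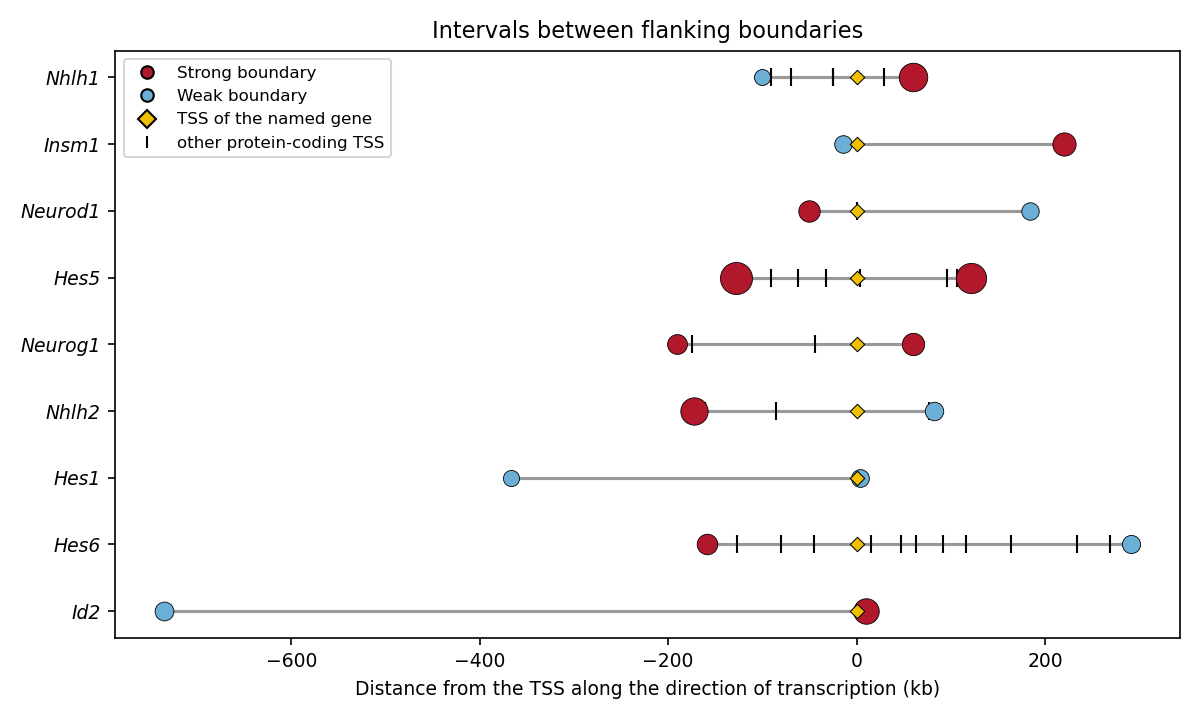
Intervals of the 9 genes, each drawn from its TSS (diamond) along the direction of transcription in kb, with upstream to the left; circles are flanking boundaries, coloured by class and growing with score, and vertical ticks are the TSSs of other protein-coding genes. Hes1, Id2 and Insm1 sit near an end of an interval with no tick, and the interval of Id2 reaches 735 kb upstream; the TSS of Cerkl, 0.034 kb from that of Neurod1, is hidden by the diamond.

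The combination of an interval with no other protein-coding TSS and a boundary within 15 kb of the TSS was found for 3 of the 9 genes, and for 1.61% of all protein-coding genes with a boundary on both sides. This pair of features and the limit of 15 kb were chosen after the values were seen. Hes1 counts among the 3 only if it is placed on the upstream side of the boundary bin that lies over it. Genes of other types were present in all 3 intervals, 7 in that of Hes1, 8 in that of Id2 and 2 in that of Insm1. Among all genes alone in their interval by protein-coding TSSs, 47.6% had a boundary within 50 kb, against 43.2% of those that shared one.

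Over the whole set, the median distance lay close to that of other genes, while the median number of protein-coding TSSs was lower. The median distance to the nearest boundary was 59.7 kb for the 9 genes and 59.3 kb for all protein-coding genes. The median interval was 250 kb against 275 kb, and the median number of other protein-coding TSSs in it was 3 against 5. Among the 9 genes that number ran from 0 to 11, and the difference was not tested. The nearest boundary was Strong for 6 of the 9 genes, against 64.4% of all protein-coding genes. It lay downstream of the TSS for 6 and upstream for 3, and over all protein-coding genes with a boundary on both sides it lay upstream for 52%. The regulators are short genes, of 1.45 to 5.42 kb, and each filled at most 3.3% of its interval.

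**Figure D2:**
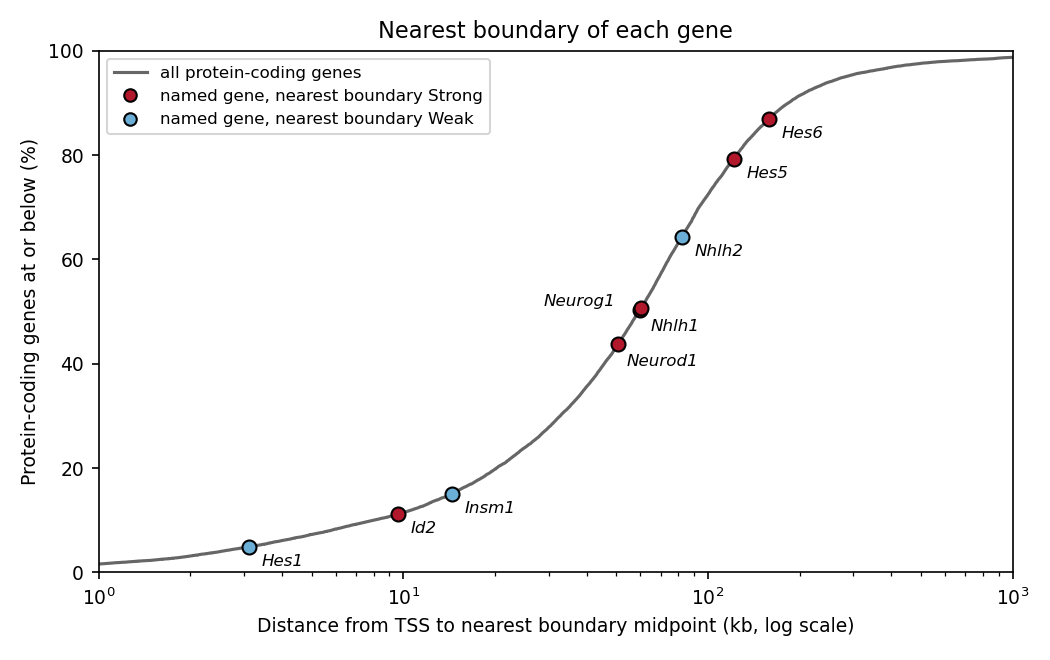
Distance from the TSS to the nearest boundary midpoint in kb on a log axis (x) against the percentage of protein-coding genes at or below that distance (y); the line is all protein-coding genes, of which 623 fall outside the 1 to 1000 kb shown, and the points are the 9 genes, coloured by the class of the nearest boundary. Hes1, Id2 and Insm1 lie at the near end of the curve, 4 of the others between 50.7 and 82.4 kb, and Hes5 and Hes6 at 122 and 158 kb.

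Neurog1, the proneural gene that is needed for olfactory neurons to form, lies on chromosome 13 at 56250478 to 56252163, in a single exon on the minus strand. It had a Strong boundary 59.7 kb downstream (score 0.834) and another 190 kb upstream (score 0.560), so that its interval was 250 kb long. The downstream bin, at 56190001 to 56195000, was intergenic, and the upstream one, at 56440001 to 56445000, lay in an intron of Slc25a48, a mitochondrial carrier gene. The TSSs of Cxcl14, a chemokine gene 44.4 kb upstream, of Gm3045 at 174 kb and of Slc25a48 at 186 kb lay between the same boundaries. Neurog1 and Hes5 were the only ones of the 9 genes with Strong boundaries on both sides, as had 38.6% of the protein-coding genes flanked on both sides.

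Neurod1, which drives the later differentiation of many neurons, lies on chromosome 2 at 79452521 to 79456751 on the minus strand, with 2 exons. Its upstream boundary was the nearer, a Strong one at 50.7 kb (score 0.731) in intergenic sequence at 79505001 to 79510000. The downstream one lay 184 kb away in an intron of the integrin gene Itga4, at 79270001 to 79275000, and was Weak (score 0.337). Only Cerkl, a ceramide kinase-like gene that is expressed in the retina, shared the interval of 235 kb. Its annotated TSS lay 0.034 kb from that of Neurod1 on the same strand, and its body of 126 kb covered Neurod1 and stayed within the interval.

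Nhlh1 and Nhlh2, 2 closely related bHLH genes of immature neurons, lie on different chromosomes and had intervals of unequal size. Nhlh1, on chromosome 1 at 172052292 to 172057573 (minus strand), had an interval of 160 kb, the shortest of the 9. Its downstream boundary, 60.1 kb away at 171995001 to 172000000, was Strong with a score of 1.64, above 92.3% of the list or equal to it. Its upstream boundary, 99.9 kb away in an intron of Dcaf8 at 172155001 to 172160000, had a score of 0.210, near the floor of the list. Between them lay the TSSs of Copa at 25.0 kb, Ncstn at 25.2 kb, Vangl2 at 29.1 kb, Pex19 at 69.2 kb and Dcaf8 at 90.5 kb. Ncstn encodes nicastrin, a subunit of the gamma-secretase that cleaves Notch receptors, and Vangl2 is a planar cell polarity gene.

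Nhlh2, on chromosome 3 at 102010076 to 102015492 (plus strand), had an interval of 255 kb. The upstream boundary, 173 kb away, was Strong (score 1.47) and lay in an intron of Mab21l3 at 101835001 to 101840000. The downstream one, 82.4 kb away, was Weak (score 0.431) and lay in an intron of Casq2, a cardiac calsequestrin gene, at 102090001 to 102095000. The interval held the TSSs of Casq2 (76.3 kb), Slc22a15 (85.6 kb) and Mab21l3 (161 kb). Each Nhlh gene thus had a boundary on one side that scored at or above at least 89.5% of the list and a Weak one on the other, and the sides were opposite relative to transcription.

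Insm1, a zinc finger gene that promotes the terminal divisions of olfactory neuron progenitors, lies in a single exon on chromosome 2 at 146221921 to 146225020 (plus strand). Its nearest boundary was 14.4 kb upstream, Weak with a score of 0.348, at 146205001 to 146210000 in an intron of Cfap61. The downstream boundary lay 221 kb away in an intron of Ralgapa2, at 146440001 to 146445000, and was Strong (score 0.937). No other protein-coding TSS lay in its 235 kb, and the nearest one, of Crnkl1, was 287 kb away. The bodies of Cfap61 and Ralgapa2 reached into the interval from either side, so Insm1 was alone by TSSs but not by gene bodies.

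The Hes genes gave the widest contrast. Hes1, the repressor that answers Notch signalling in progenitors, lies on chromosome 16 at 30064384 to 30067796 (plus strand). A boundary bin lay over the gene itself, at 30065001 to 30070000, with its midpoint 3.12 kb downstream of the GENCODE TSS and in an exon of Hes1. RefSeq starts the gene further along, at 30065357, and by that annotation the TSS and the whole gene lay inside the bin, which is as fine as the list resolves. Of all RefSeq protein-coding genes, 4.04% had their start inside a boundary bin, and Hes1 was the only one of the 9 that did. By the GENCODE 5′ end of each gene, this held for 3.99% of all protein-coding genes and for none of the 9. GENCODE also lists other transcript starts, 4 in all for Hes1. The one nearest to the midpoint lay 1.16 kb from it, inside the bin. The score of this boundary was 0.363 (Weak), at or above 32% of the list. The upstream boundary was 367 kb away in intergenic sequence at 29695001 to 29700000, with a score of 0.224.

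Hes1 was the only one of the 9 genes with Weak boundaries on both sides, as were 12.4% of the protein-coding genes flanked on both sides, and its nearest Strong boundary lay 258 kb away. Its interval of 370 kb held 7 non-coding RNA genes and no other protein-coding TSS, and the nearest one, of Cpn2, lay 203 kb away. That interval was assigned because the TSS lies upstream of the bin midpoint. The gene body spans the midpoint, so the list does not settle on which side Hes1 belongs. On the downstream side the next interval, of 255 kb, held 3 protein-coding TSSs.

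Hes5, another Notch-induced repressor, lies on chromosome 4 at 154960923 to 154962371 (plus strand) near the middle of an interval of 250 kb, at 51.4% of its length. The upstream boundary was 128 kb away at 154830001 to 154835000 with a score of 2.19, and the downstream one 122 kb away at 155080001 to 155085000 with a score of 1.90. These were the highest scores among the 18 flanking boundaries, at or above 97.6% and 95.5% of the list. Pank4, a pantothenate kinase family gene, started 3.20 kb from Hes5, and Tnfrsf14 (32.4 kb), Fam213b (61.8 kb), Mmel1 (91.3 kb) and Plch2 (95.9 kb) followed, with Pex10 and Ttc34 beyond them. The upstream boundary lay 4.96 kb from the TSS of Ttc34 and the downstream one in an intron of Rer1, 3.88 kb from its TSS.

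Hes6, which counteracts Hes1 and promotes neuronal differentiation, lies on chromosome 1 at 91411483 to 91414038 (minus strand). It was the farthest of the 9 from a boundary, with a Strong one 158 kb upstream (score 0.635, 91570001 to 91575000) and a Weak one 292 kb downstream (score 0.399, 91120001 to 91125000, in an exon of Lrrfip1). At 158 kb its nearest distance was at or above that of 86.9% of protein-coding genes. The interval of 450 kb held the TSSs of 11 others, of which the nearest were Ilkap at 15.2 kb, the circadian clock gene Per2 at 45.3 kb, Erfe at 47.6 kb, Klhl30 at 63.0 kb and Traf3ip1 at 80.6 kb. The nearest boundary distances of the Hes genes thus ran from 3.12 kb (Hes1) through 122 kb (Hes5) to 158 kb (Hes6).

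**Figure D3:**
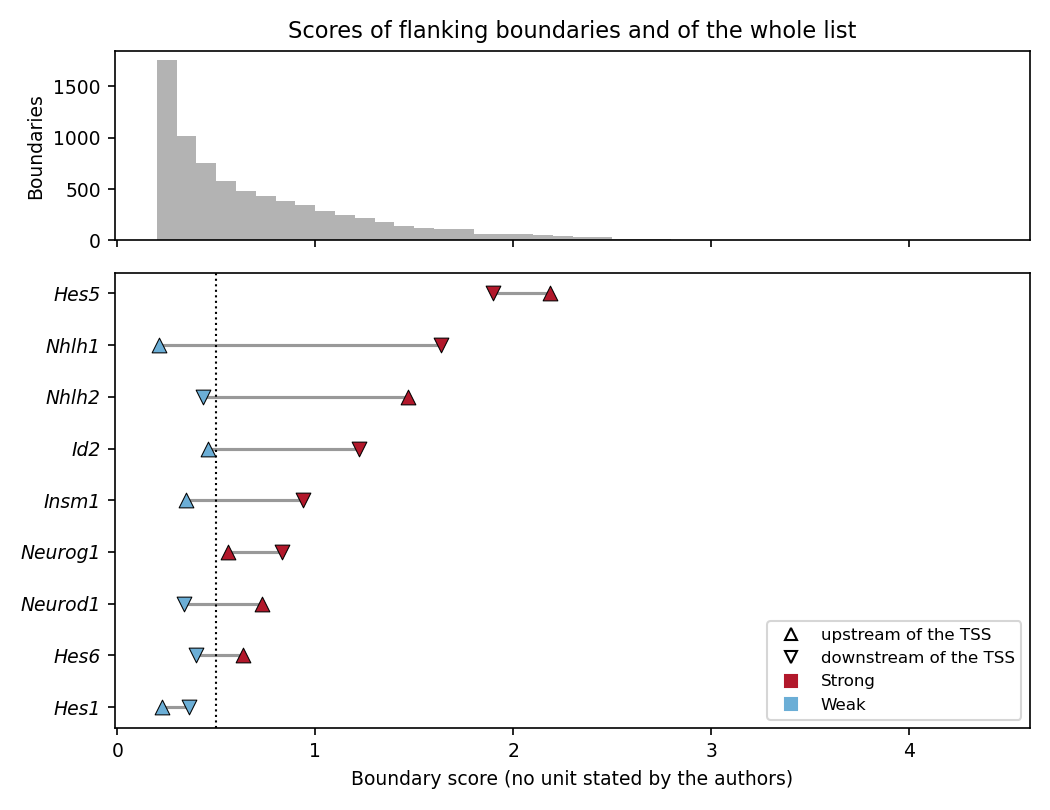
Top, the number of boundaries of the whole list by score in steps of 0.1; bottom, the scores of the upstream (triangle up) and downstream (triangle down) boundary of each of the 9 genes, coloured by class, with the dotted line at 0.5 between Weak and Strong. The boundaries of Hes5 score 2.19 and 1.90, those of Hes1 0.224 and 0.363, and 6 genes have 1 boundary on each side of the line.

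Id2 encodes a helix-loop-helix protein without the basic region that contacts DNA. It lies on chromosome 12 at 25093799 to 25097140 (minus strand), with a Strong boundary 9.64 kb downstream (score 1.22) in intergenic sequence at 25085001 to 25090000. The next boundary upstream was 735 kb away, in intergenic sequence at 25830001 to 25835000, and was Weak (score 0.457). The interval of 745 kb was the longest of the 9, at or above 92% of those of all protein-coding genes. It held 5 non-coding RNA genes, 2 pseudogenes and no other protein-coding TSS, and the intervals next to it, of 110 and 455 kb, held none either. The nearest protein-coding TSS, of Kidins220, was 122 kb away, beyond 2 boundaries.

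**Figure D4:**
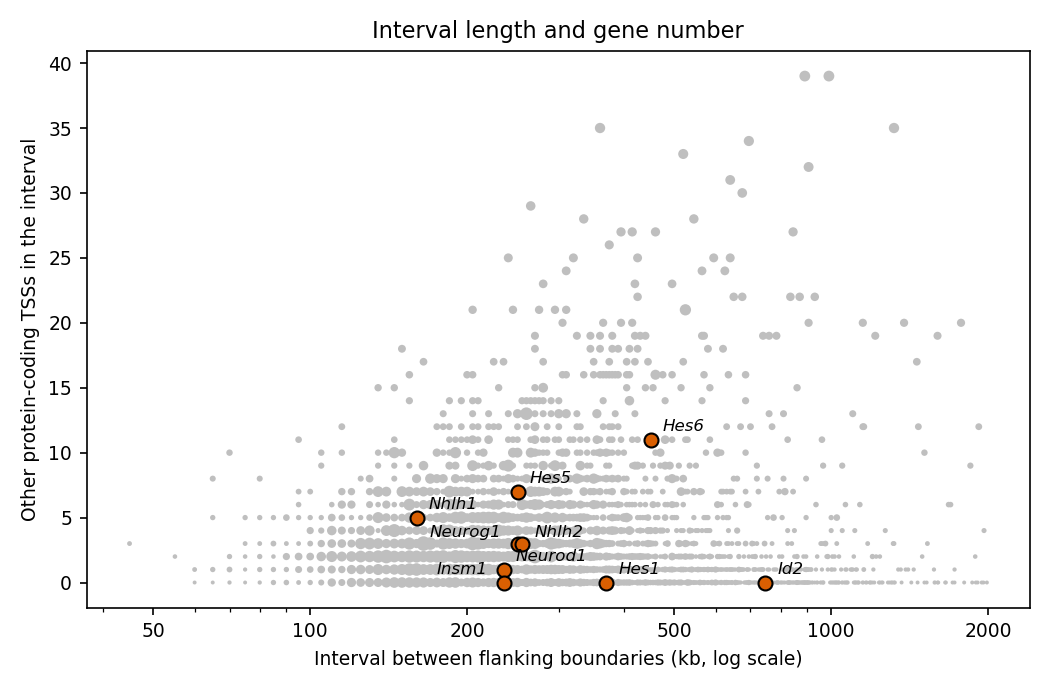
Length of the interval in kb on a log axis (x) against the number of other protein-coding TSSs in it (y); grey discs are all protein-coding genes, growing with the number of genes at that point, with 559 genes beyond 2000 kb or 40 TSSs not shown, and orange points are the 9 genes. Hes6, with 450 kb, holds 11 others, while Id2, with 745 kb, holds none.

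Of the 18 flanking boundaries, 10 were Strong (55.6%), against 53.4% of the list, and their median score was 0.598. The list counts each boundary once, whichever genes lie beside it. Of protein-coding genes flanked on both sides, 38.6% had Strong boundaries on both and 12.4% on neither, against 2 and 1 of the 9. The midpoints of the 18 lay in introns in 8 cases, in exons in 2 and between genes in 8. A protein-coding TSS lay within 10 kb of 7 of them, against 25.9% of all boundaries, and at 2 of the 7 the nearest such TSS was that of the regulator itself, Hes1 or Id2. The 18 were taken because they flank a protein-coding TSS, which was no condition for the list, so the sets are unlike. Of the 18, the boundary farthest from any protein-coding TSS was the upstream one of Id2, 583 kb from the TSS of Rnf144a.

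CTCF, the zinc finger protein that stops cohesin at domain borders, binds a motif with a direction, and matches to its core consensus of 12 bases on either strand were located near the flanking boundaries. A match lay within 10 kb of 11 of the 18 (61.1%), against 58% of all boundaries. By class, 7 of 10 Strong and 4 of 8 Weak ones had a match, against 68.5% and 46.1% in the list. In all there were 27 matches, of which 14 pointed towards the regulator and 13 away from it. A match is a sequence and not measured binding. The following lines show 3 matches at the downstream boundary of Id2, all of which pointed into the Id2 interval, and those at Neurog1 and Hes5 that also met a stricter consensus of 14 bases. Each is 40 bases of GRCm38 read along the strand of the match, with the core in capitals.
Id2 downstream, chr12:25088860-25088899, plus strand: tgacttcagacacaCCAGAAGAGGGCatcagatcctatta
Id2 downstream, chr12:25092412-25092451, plus strand: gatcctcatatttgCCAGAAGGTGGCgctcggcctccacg
Id2 downstream, chr12:25080999-25081038, plus strand: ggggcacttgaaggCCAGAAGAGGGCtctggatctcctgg
Neurog1 downstream, chr13:56197676-56197715, plus strand: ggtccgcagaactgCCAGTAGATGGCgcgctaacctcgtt
Hes5 upstream, chr4:154825941-154825980, minus strand: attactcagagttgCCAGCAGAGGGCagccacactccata

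All of these 5 lie between genes. The first lay inside the boundary bin of Id2, 8.26 kb from the TSS, and the second lay 4.71 kb from the TSS, between the boundary and the 3′ end of the gene. The match at Neurog1 pointed towards the gene and that at Hes5 away from it, while the other 4 matches at the Hes5 boundary pointed towards Hes5. Another match to the stricter consensus, with the core CCAGTAGGTGGC, lay in an exon of Cfap61 at 6.99 kb from the Insm1 TSS and pointed towards Insm1. The stricter consensus was met within 10 kb of 3 of the 18 boundaries and of 13.8% of the list. No core match lay within 10 kb of either boundary of Neurod1 or of the boundary over Hes1. The same was true of the downstream boundaries of Nhlh1, Nhlh2 and Hes5 and the upstream one of Id2. Of these without a match, the downstream ones of Hes5 and Nhlh1 and the upstream one of Neurod1 were Strong (scores 1.90, 1.64 and 0.731).

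The most frequent core, CCAGAAGAGGGC, made up 16 of the 27 matches (59.3%), a share near its 56.8% of the 88670 matches on the autosomes and X. In 10 of the 27 it was followed by NTCAGAT, as in 29.7% of all matches. The reference marks 21 of the 27 (77.8%) as repeat sequence, against 70.4% of all matches, while 34.3% of the sequenced bases are so marked. B2 elements, short interspersed repeats of rodents, are known to carry a CTCF motif. Whether these matches belong to them was not tested. Matches from the boundaries of Neurog1, Nhlh1, Hes1 and Hes5 show examples from these 10, picked because they share the bases after the core.
Neurog1 upstream, chr13:56441880-56441919, plus strand: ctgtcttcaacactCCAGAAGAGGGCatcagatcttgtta
Nhlh1 upstream, chr1:172155242-172155281, plus strand: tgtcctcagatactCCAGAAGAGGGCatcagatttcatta
Hes1 upstream, chr16:29701340-29701379, plus strand: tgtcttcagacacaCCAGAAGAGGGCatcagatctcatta
Hes5 upstream, chr4:154829519-154829558, plus strand: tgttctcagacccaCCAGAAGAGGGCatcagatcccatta

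The first of these lies in an intron of Slc25a48, the second in an intron of Dcaf8 and the others between genes. Outside the sequence marked as repeat there were 6 matches, at 6 boundaries, and they included the second Id2 match and the Neurog1 match shown above.

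**Figure D5:**
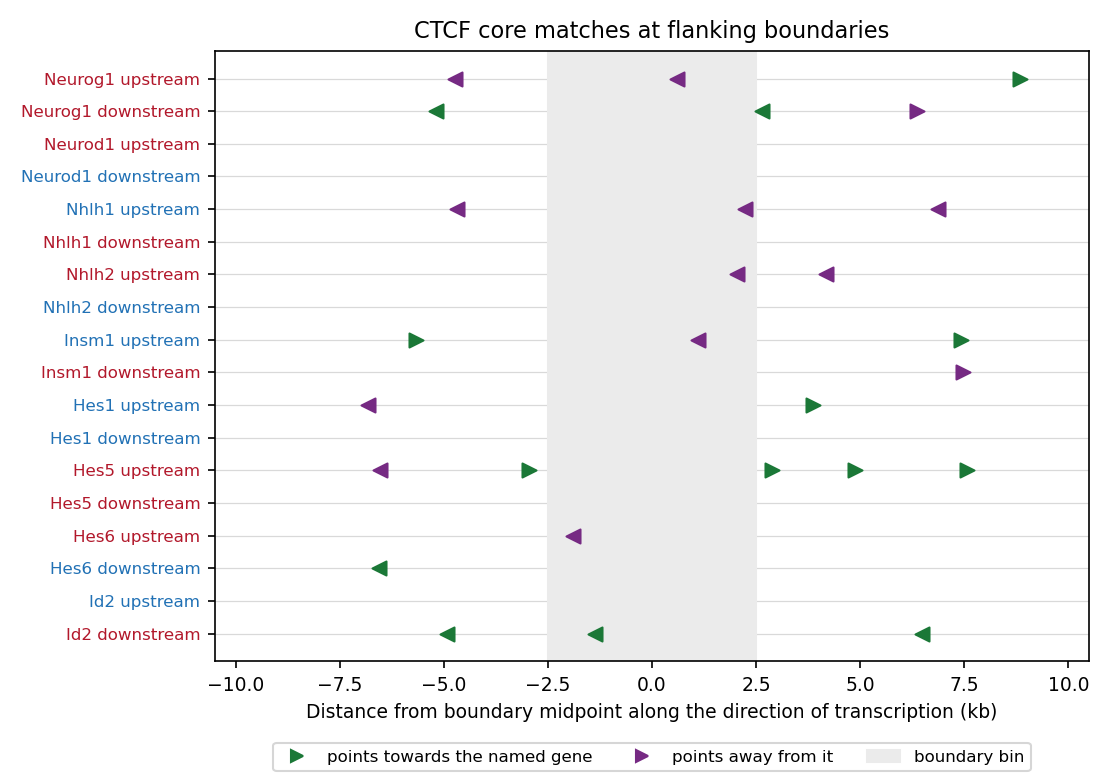
CTCF core matches within 10 kb of the 18 flanking boundaries, placed by distance from the midpoint in kb along the direction of transcription of the named gene; arrowheads give the direction of the motif, green towards the gene and purple away from it, grey is the bin, and labels are red for Strong and blue for Weak boundaries. All 3 matches at the downstream boundary of Id2 and 4 of 5 at the upstream boundary of Hes5 point towards the gene, and 7 boundaries have no match.

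The intervals differed in base composition and in matches. GC content ran from 39.8% in the Neurod1 interval to 52.4% in that of Hes5, against 41.8% genome-wide, and core matches from 8.51 per Mb (Neurod1) to 100 per Mb (Neurog1 and Nhlh1), against 34.6. The Id2 interval, at 13.4 per Mb, was second lowest. DpnII sites, which limit where contacts can be seen, numbered 2.1 to 2.63 per kb against 2.51. Of reads of 100 bases taken from the reference, 92.4 to 99% in each interval aligned uniquely, against 90.5% genome-wide. Within 50 kb of each flanking boundary the share ran from 86.5%, at the upstream boundary of Hes5, to 99.5%.

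The promoters of these genes were of unequal CpG content. RefSeq promoter sequences (GRCm38.p6, 250 bases before to 50 after the start) were matched for 7 of the 9 genes, with 2 entries for Hes6 and none for Hes1 and Insm1. The ratio of observed to expected CpG was 1.04 for Hes5, 0.891 for Neurog1, 0.837 for Neurod1 and 0.711 for Id2, and 0.530 and 0.663 for the Hes6 entries. It was 0.0840 for Nhlh1 and 0.143 for Nhlh2. The median over 32851 entries was 0.384, and 35.8% reached 0.6. The contrast shows in the 100 bases before the RefSeq start, printed along the minus strand with each CpG in capitals: 12 in Neurog1 and 0 in Nhlh1.
Neurog1, chr13:56252181-56252280, minus strand: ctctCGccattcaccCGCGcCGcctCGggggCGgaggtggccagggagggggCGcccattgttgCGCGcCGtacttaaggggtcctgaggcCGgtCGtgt
Nhlh1, chr1:172057597-172057696, minus strand: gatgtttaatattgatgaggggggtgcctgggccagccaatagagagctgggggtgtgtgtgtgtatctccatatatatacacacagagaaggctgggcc

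The E-box CANNTG, the site of bHLH activators, which reads the same on both strands, was present in all 8 entries and in 72.3% of all entries. The N-box CACNAG, the site described for Hes repressors, was searched on both strands and found in 4 of the 8 entries (1 for Hes6, and those of Neurod1, Nhlh2 and Id2) and in 42.5% of all entries. Such matches are letters in the sequence and not measured binding.

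Related genes outside the 9 gave similar medians. Of 34 other bHLH, Id and neurogenic factors, 14 (41.2%) had a boundary within 50 kb, with a median distance of 60.8 kb and a median interval of 258 kb. Their intervals held a median of 2.5 other protein-coding TSSs, against 3 for the 9 genes and 5 for all protein-coding genes. Alone in their interval were 8 (23.5%), and the nearest boundary was Strong for 30 (88.2%), which is more than the 64.4% of all protein-coding genes. Whether that difference exceeds chance was not tested. The nearest to a boundary were Tcf4 (0.856 kb), Rest (2.99 kb) and Sox4 (3.79 kb), and the farthest were Myt1 (156 kb), Neurod6 (159 kb) and Sox11 (265 kb).

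Hes2 and Hes3, 133 kb apart on chromosome 4, shared both boundaries, with the nearer at 26.4 and 5.84 kb. Between Hes3 and Hes5, 2.67 Mb apart on that chromosome, lay 8 boundaries, 5 of them Strong. Hes7, the gene of the segmentation clock, had a Strong boundary at 7.10 kb in an interval of 95 kb.

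Of 24 Notch pathway genes, 9 (37.5%) had a boundary within 50 kb, with a median distance of 68.2 kb, a median interval of 300 kb and 3 genes alone. The nearest were the ligand Jag1 (0.856 kb, Weak), the Notch-induced Nrarp (3.26 kb, Strong) and the ligand Dll1 (10.6 kb, Weak). The farthest were the receptor Notch3 (144 kb), the coactivator Maml3 (147 kb) and the ubiquitin ligase Mib1 (167 kb). Of 13 genes of odorant transduction and mature neurons, 6 (46.2%) had a boundary within 50 kb, led by Gng13 (0.329 kb), Gnal (14.3 kb) and Gnb1 (23.9 kb). Their farthest were Ano2 (82.9 kb), Pde1c (96.6 kb) and Ric8b (99.9 kb), and their median interval was 240 kb. The median number of other protein-coding TSSs in the interval was 3 for these 13 genes and 5 for the Notch pathway genes.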

How the data were processed

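Per the labels' design text, the authors merged the replicates' contacts into 1 GRCm38 matrix, from which the boundaries were derived. The deposited list gives a score, without a stated unit, and a class per 5 kb bin. The sources used here name no caller, window or aligner and give no number of contacts. All bins lay within the chromosome lengths of the GRCm38.p6 reference.

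Distances run from the annotated 5′ end of the gene (GENCODE M21) to bin midpoints. Where a symbol had several records the longest was kept (27 dropped), and 203 genes lacked a boundary on 1 side. CTCF consensus matches were exact, on both strands. Reads of 100 bases were taken every 500 bases of the intervals and every 50000 bases of the genome. They were also taken every 500 bases within 50 kb of flanking midpoints. All were aligned with minimap2 2.31. A read was unique if it returned to its origin with a mapping quality of 30 or more. The reference is C57BL/6J and the mice were 129P2/OlaHsd. With 1 map, no test was made. Placement and motif search were tested on simulated data.

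The genes and lists were chosen with earlier results of these data known. Named besides the 9 genes were at most 5 nearest genes sharing an interval, genes nearest to or over a boundary, the 3 nearest and 3 farthest of each list, and Hes2, Hes3 and Hes7. A gene of these lists is not reported here. Pex10, Ttc34, and the nearest protein-coding genes Crnkl1, Cpn2 and Kidins220, were named after their values were seen. Alternatives were other boundary subsets, gene starts, distance limits, gene types, gene bodies and motif rules.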

Additional observations from a re-analysis of the deposited data

How the results depend on the processing

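With boundaries that score at least 0.3, and with RefSeq starts, 3 genes again had a boundary within 50 kb. At the limit of 0.3, however, 2 genes were alone in their interval, because the upstream boundary of Hes1 (score 0.224) dropped out. Counted by gene bodies, 2 genes were alone. With Strong boundaries alone, 1 gene (Id2) had a boundary within 50 kb, against 28% of all protein-coding genes, the median interval was 545 kb, against 480 kb for all, 1 gene was alone in its interval, and the nearest distances of Nhlh2, Insm1 and Hes1 became 173, 221 and 258 kb. The median number of other protein-coding TSSs was 4 with Strong boundaries alone. With the boundaries that score above the list's median, the values were 1 gene within 50 kb, 745 kb, a median of 5 other genes and 1 gene alone. At a limit of 100 kb, 7 genes had a boundary, and measured to the nearer bin edge 4 had one within 50 kb, Neurod1 being the added gene. Counting genes of any type, the median of others was 8 and 0 of the 9 genes were alone. The CTCF count was 6 of 18 inside the bin (24.7% of all boundaries) and 3 with the stricter consensus (13.8%). The counts of genes alone were added after seeing the data. For boundaries of at least 0.3 or above the median, and for the bin edge, values over all protein-coding genes were not computed. The same holds for the median of 4 with Strong boundaries, and for the counts in this section of genes alone and of genes of any type. No paired analysis was possible because the list pools both replicates of 1 group, and for the same reason no replicate could be left out.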
